A study of Oryza sativa Japonica Group with 17 samples.

Results

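The i-motif (iM) peaks of demethylated rice DNA, taken from seedlings given zebularine, were compared with those of CK DNA at pH 7.0. The peak set of a condition was made of the peaks called against input that overlapped, by at least 1 bp, a peak called against IgG in the same condition. By this rule demethylated DNA had 73109 peaks and CK had 55062, together 128171 of the 354589 peaks in the 5 conditions of the series. Peaks with an overlap of 1 bp or more between the sets were called shared, and all others specific. The rule used positions only. Wider peaks overlap more readily, so width is not independent of these classes.

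An iM is a folded form of a C-rich strand in which protonated and unprotonated cytosines pair and intercalate, so that acid favours it and the chemistry of the cytosine matters. Zebularine is a cytidine analogue that inhibits DNA methyltransferases, and DNA replicated in its presence loses 5-methylcytosine. In rice, cytosine methylation is densest in the transposon-rich heterochromatin around the centromeres and sparser along the gene-rich arms. iM-IP-seq maps iMs in purified DNA that was fragmented, denatured and refolded in a tube, then pulled down with the iM-binding antibody fragment iMab and sequenced. The peaks therefore describe what naked DNA can fold, without chromatin.

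Demethylated DNA came from Nipponbare (Oryza sativa, Japonica) seedlings that were 5 days old when exposure to 80 µM zebularine in DMSO began, and it was refolded at pH 7.0. CK was DNA labelled as untreated, also refolded at pH 7.0. The labels describe both seedlings harvested at 2 weeks and a control given DMSO alone, without saying which of them gave the CK DNA, so age and solvent cannot be told apart from demethylation. Each condition had 2 IP libraries and 1 IgG library. The series had an input library of demethylated DNA, but none of its 17 samples was labelled as CK input. The control behind the CK input-called list could therefore not be examined. The study called peaks on the merged IPs. There is thus 1 value per condition and no replicate error, no test between conditions was possible, and the 95% intervals below (Wilson for shares, order statistics for medians) cover counting error only. Hypermethylated DNA, treated in vitro with the methyltransferase M.CviPI, and demethylated DNA refolded at pH 5.5 are used only for comparison.

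The lists did not have equal depth, and this touches most of what follows. The background level, which is the number of IP fragments expected at a position without enrichment, was 14.4 in both demethylated lists. For CK the input-called list had 6.005 and the IgG-called list 11.2, because the peak caller had scaled the CK IP to 0.489 and 0.910 of its fragments. The smallest peak and the smallest gap between peaks were 206 and 207 bp in the demethylated lists, against 168 and 169 bp in the CK lists. The local control level at the summit also differed, with a median of 1.08 times background in demethylated input-called peaks and 1.69 times background in CK input-called peaks, compared with 1.15 and 1.07 times in the IgG-called lists of demethylated DNA and CK.

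To see how far the sets coincided, peaks were first split into shared and specific. Of the demethylated peaks, 38.6% (28207 peaks, 95% interval 38.2 to 38.9) were specific, against 10.6% of the CK peaks (5812 peaks, 10.3 to 10.8). Demethylated peaks covered 42.5 Mb, or 11.4% of the chromosomes, whereas CK peaks covered 19.9 Mb, or 5.34%. The 18.3 Mb that both sets covered was 43.0% of the demethylated length and 91.7% of the CK length. In these sets CK peaks thus lay largely within demethylated peaks. The contrast in length was much smaller in the IgG-called lists, whose peaks covered 42386 kb in demethylated DNA and 38608 kb in CK.

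A specific peak was not always a place without signal in the other condition. The CK IgG-called list had a peak at 17813 of the 28207 demethylated-specific peaks (63.2%), and 17750 of these had no CK input-called peak. CK input-called peaks that had not passed the rule for the CK set lay on 1587. The remaining 8870 demethylated-specific peaks (31.4%, 30.9 to 32.0) overlapped no CK peak of either kind. In the other direction, 3411 of the 5812 CK-specific peaks (58.7%) overlapped no demethylated peak in either list. Peaks on no peak of the other condition were therefore 12.1% of all demethylated peaks and 6.19% of all CK peaks, a smaller contrast than that of the specific peaks.

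**Figure D1:**
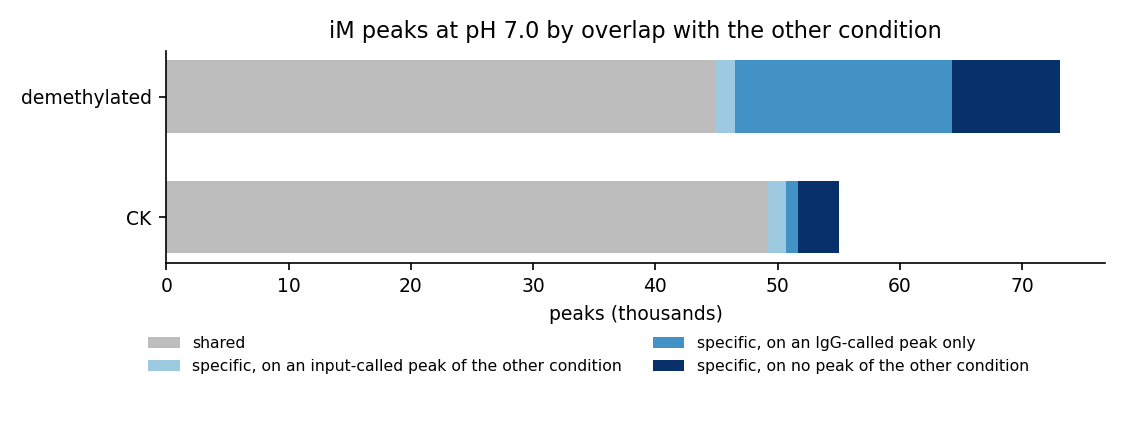
Number of iM peaks (x axis) of the demethylated and CK sets at pH 7.0, split by overlap with the lists of the other condition. In demethylated DNA the block of specific peaks that lie on a CK IgG-called peak only (17750) was larger than the block on no CK peak (8870), whereas in CK the block on no demethylated peak (3411) was the largest specific block.

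The balance of specific peaks depended on the lists used. With all IgG-called peaks, 16.7% of demethylated peaks (13346 of 79889) and 25.7% of CK peaks (24275 of 94627) were specific, the opposite direction. In these lists 11718 demethylated peaks and 19261 CK peaks overlapped no peak in either list of the other condition. In another setting, CK peaks closer than the demethylated minimum gap were joined, and those under the demethylated minimum width were then dropped. The IgG-called lists then gave 18246 demethylated-specific (22.8%) and 14727 CK-specific peaks (18.9%). This cut the CK list from 94627 to 77841 peaks and left the demethylated list at 79889. A demethylated peak whose CK partner was dropped counts as specific, so the larger demethylated number cannot be separated from the cut. The number of gained and lost peaks is thus not fixed by these data. Settings with a higher threshold, the top 20000 peaks or local control at background cut each set before overlaps were read. So did one coverage, which keeps the peaks that would pass with both conditions at the same depth. A peak then counts as specific when its partner was cut, so these counts are not comparable with the others. With local control at background, 87.3% of the remaining demethylated and 64.6% of the remaining CK peaks were specific.

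**Figure D2:**
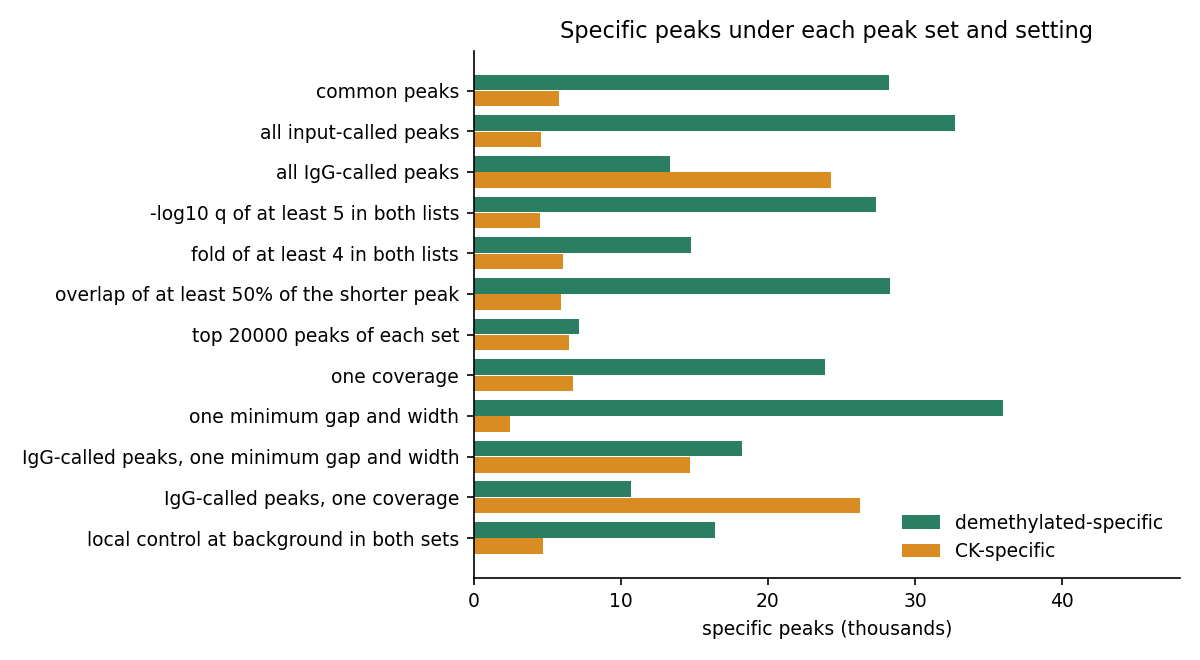
Number of specific peaks (x axis) of demethylated DNA (upper bar of each pair) and CK (lower bar) under each peak set and setting, where common peaks are the sets of this comparison and one coverage keeps the peaks that would pass with both conditions at the same depth. Set sizes differ between settings, and settings that cut peaks before overlaps were read are not comparable with the others. Demethylated DNA had more specific peaks than CK with common peaks (28207 against 5812, or 38.6% against 10.6%). It had fewer with IgG-called peaks taken as they are (13346 against 24275, or 16.7% against 25.7%). At one coverage the IgG-called lists gave 10672 against 26231, or 14.5% against 28.2%.

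At the 17750 demethylated-specific peaks that lay on a CK IgG-called peak only, the signal on the CK side could be read from the CK IgG-called list. The IP level is the number of IP fragments at the summit, after the peak caller's scaling, divided by the background level of the same list. It had a median of 3.53 in demethylated DNA and 4.64 in CK. The median log2 ratio of demethylated over CK was -0.38 (-0.39 to -0.37), and the demethylated level was higher at 3320 of the 17750 peaks (18.7%). The CK peaks there had a median −log10 q-value of 14.6. These places thus carried CK signal that had passed the threshold against IgG and not against input.

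Specific peaks were weaker and narrower than shared ones in both sets. In demethylated DNA the median width was 330 bp for specific and 514 bp for shared peaks, the median fold was 2.87 and 4.46, and the median IP level was 3.39 and 5.33. In CK the median width was 199 bp for specific and 289 bp for shared peaks, the median fold was 3.25 and 3.57, and the median IP level was 4.97 and 7.33. Demethylated-specific peaks on no CK peak were weaker again, with a median width of 297 bp, a fold of 2.53, an IP level of 2.91 and 42 fragments at the summit. CK-specific peaks on no demethylated peak were close to other CK-specific peaks, with 195 bp, a fold of 3.26, an IP level of 4.80 and 59 fragments.

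Peaks were then ranked by IP level and divided into 10 classes of equal size. In demethylated DNA the specific share was 85.04% (84.2 to 85.8) in the lowest class, 40.7% in the fifth class and 3.99% (3.56 to 4.46) in the highest class. In CK it was 28.6% (27.4 to 29.8), 9.60% and 0.473% (0.323 to 0.692) in the same classes. The strongest iM peaks were nearly all present in both conditions, and specific peaks were concentrated among the peaks of low IP level. Peaks were called by a threshold on this same signal, so weak peaks lack a partner more readily in any 2 lists. IP level is therefore not independent of these classes, and lists of separate libraries of a condition were not available for comparison.

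**Figure D3:**
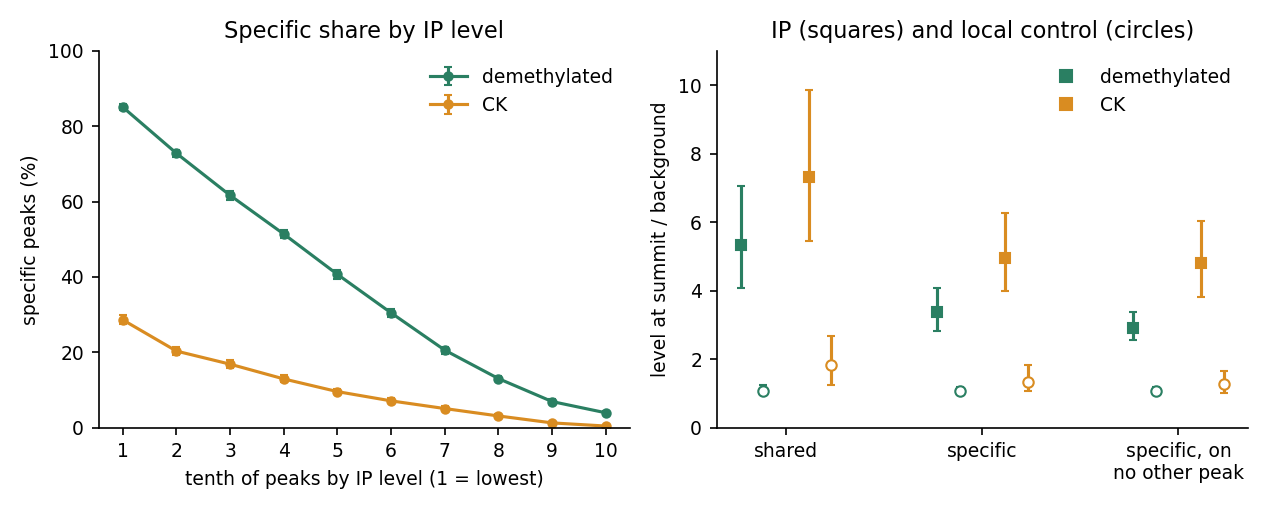
Left, share of peaks that were specific (y axis, percent, bars are 95% Wilson intervals) in each of 10 classes of IP level for demethylated DNA and CK. Right, median IP level (squares) and local control level (open circles) at the summit relative to background, with quartiles as bars. The specific share was 3.99% in the highest class of demethylated peaks and 0.473% in that of CK peaks, and the control level of shared peaks was 1.09 in demethylated DNA and 1.83 in CK.

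The distance from specific peaks to the other set depends on how dense that set is, and was not compared with random positions. The median distance from a demethylated-specific peak to the nearest CK peak was 2.20 kb, and 26.6% lay within 1 kb. For CK-specific peaks the median distance to the nearest demethylated peak was 1.63 kb, and 35.1% lay within 1 kb. Demethylated-specific peaks on no CK peak were at a similar distance, with a median of 1.97 kb.

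To ask whether these peaks recurred elsewhere, they were looked up in the peak sets of the other 3 conditions, each built by the same rule. Of the shared demethylated peaks, 90.9% were in the hypermethylated pH 7.0 set, 75.4% in the demethylated pH 5.5 set and 91.9% in the hypermethylated pH 5.5 set. Demethylated-specific peaks were found less often, at 53.7%, 43.007% and 58.5%. For those on no CK peak the shares were 32.1%, 14.4% and 34.4%. In each of these classes, shared peaks included, the share was lowest in demethylated DNA refolded at pH 5.5, which came from seedlings given the same treatment.

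CK-specific peaks had another order. They were in the hypermethylated pH 7.0 set at 46.6%, in the demethylated pH 5.5 set at 56.2% and in the hypermethylated pH 5.5 set at 54.9%. Of the demethylated-specific peaks on no CK peak, 14.4% (13.7 to 15.1) were thus present in demethylated DNA at pH 5.5, against 52.0% (50.3 to 53.7) of the CK-specific peaks on no demethylated pH 7.0 peak. The demethylated lists at both pH were called against the same input library. In all, 20.1% of demethylated-specific and 15.7% of CK-specific peaks were in none of the other 3 sets, compared with 1.52% and 1.498% of the shared peaks of each set. The sets differ in size, in smallest width, with 121 bp in the demethylated pH 5.5 lists, and in depth. The background level was 7.99 in the input-called and 4.78 in the IgG-called demethylated pH 5.5 list. It was 11.4 in the hypermethylated pH 7.0 lists and 9.35 in the hypermethylated pH 5.5 lists. The part of these differences in the shares was not tested.

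Where the sets did overlap, the number of peaks was not always the same on both sides. Groups of overlapping peaks held 1 demethylated and 1 CK peak in 40919 cases. In 3925 cases a single demethylated peak spanned several CK peaks, 8295 in all, which was 8.74% of the shared demethylated peaks and 16.8% of the shared CK peaks. Of these, 3538 joined 2 CK peaks, 337 joined 3 and 50 joined at least 4, up to 6. The reverse was rare, with 22 CK peaks that spanned 44 demethylated peaks, and 7 groups had several peaks on both sides.

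Joining demethylated peaks were broad. Their median width was 1399 bp, against 475 bp for the demethylated peaks of 1-to-1 groups, and 77.3% of them were at least 1 kb wide. The gap between the joined CK peaks had a median of 290 bp (quartiles 220 and 456), and 815 of 4370 gaps (18.6%) were shorter than the demethylated minimum gap of 207 bp, so that the peak caller could not have left them open in demethylated DNA. A single CK IgG-called peak spanned 1715 of the gaps (39.2%). With a single minimum gap and width for both conditions the number of joining peaks was 2344, and the number of split CK peaks was 39. In the IgG-called lists 4111 demethylated peaks joined CK peaks and 631 CK peaks were split, or 2340 and 983 with a single minimum gap and width. Joining thus outnumbered splitting under each of these settings, but by a far smaller factor when both conditions were called against IgG. Joining was 10.6% among shared demethylated peaks within 3 Mb of a centromere midpoint and 8.19% farther away.

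The 3 demethylated peaks that spanned the most CK peaks were on MSU v7.0 chromosome 7 from 16538338 to 16545568 (7231 bp, fold 8.58), chromosome 8 from 23478073 to 23484129 (6057 bp, fold 7.08) and chromosome 6 from 17468 to 25345 (7878 bp, fold 25.3). They spanned 6, 6 and 5 CK peaks, and all 3 had a peak in each of the other 3 sets. Each of the 22 CK peaks that were split gave 2 demethylated peaks. The 3 with the highest −log10 q-values were on chromosome 10 from 20463596 to 20464629 (fold 10.6), chromosome 8 from 9279963 to 9281073 (fold 12.4) and chromosome 10 from 10873311 to 10874312 (fold 4.49).

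Width and summit were compared over the 40919 1-to-1 pairs. Demethylated peaks had a median width of 475 bp and their CK partners 284 bp, with a median log2 ratio of 0.55 (0.54 to 0.56). The demethylated peak was wider in 93.9% of pairs, at least 2 times wider in 25.4% and at least 2 times narrower in 0.0929%. It extended beyond the CK peak by a median of 60 bp on the left and 58 bp on the right, and the CK peak lay wholly inside it in 78.3% of pairs. The extension was thus nearly equal on both sides.

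This difference in width was almost absent in the IgG-called lists, where the median log2 ratio was 0.08 and the demethylated peak was wider in 59.8% of 61038 pairs. Within demethylated DNA, input-called peaks had the width of the IgG-called peaks at the same places (median log2 ratio 0.01), whereas within CK they were narrower (-0.32). Hypermethylated DNA compared with CK gave values close to those of demethylated DNA, at 0.49 for common peaks and 0.04 for IgG-called peaks. The CK libraries are shared by both comparisons.

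In the pairs of common peaks the median summit distance, taken without sign, was smaller than the median signed extension of either edge (60 and 58 bp). Edges were not compared with summits in this way in the IgG-called lists, where the width ratio was 0.08. The demethylated summit lay a median of 20 bp from the CK summit, within 10 bp in 35.1% of pairs and within 50 bp in 74.03% (73.6 to 74.5). It was at the same base in 1093 pairs (2.67%). The sides were nearly even, since 20031 summits lay to the left and 19795 to the right in demethylated DNA, and the median signed shift was 0 bp. More than 200 bp separated 8.27% of the pairs and more than 500 bp separated 1.92%. The CK summit was inside the demethylated peak in 99.6% of pairs, and the demethylated summit was inside the narrower CK peak in 96.0%.

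The distance between summits differed little between lists. It was also 20 bp in the IgG-called lists, 17 bp between hypermethylated DNA and CK, and 24 bp between demethylated and hypermethylated DNA. Between the input-called and IgG-called lists of a single condition, which share their IP reads, the median was 0 bp, and 99.2% of demethylated and 98.5% of CK summits lay within 50 bp. That value near 0 follows from the shared reads and is no measure of the error of a summit. What separate libraries of the same condition would give was not measured, because the libraries were merged.

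The distance between summits was then read in 4 classes of pairs of equal size. In the class with the highest CK fold (above 4.63) the median distance was 14 bp and 82.1% were within 50 bp, against 29 bp and 64.0% in the class with the lowest. In the class with the widest CK peaks (413 bp and above) it was 31 bp, against 16 bp in the class with the narrowest (168 to 220 bp). A summit lies inside its peak, so width itself limits how far it can shift. The width ratio also followed the CK fold, at 0.72 in the lowest and 0.39 in the highest class.

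**Figure D4:**
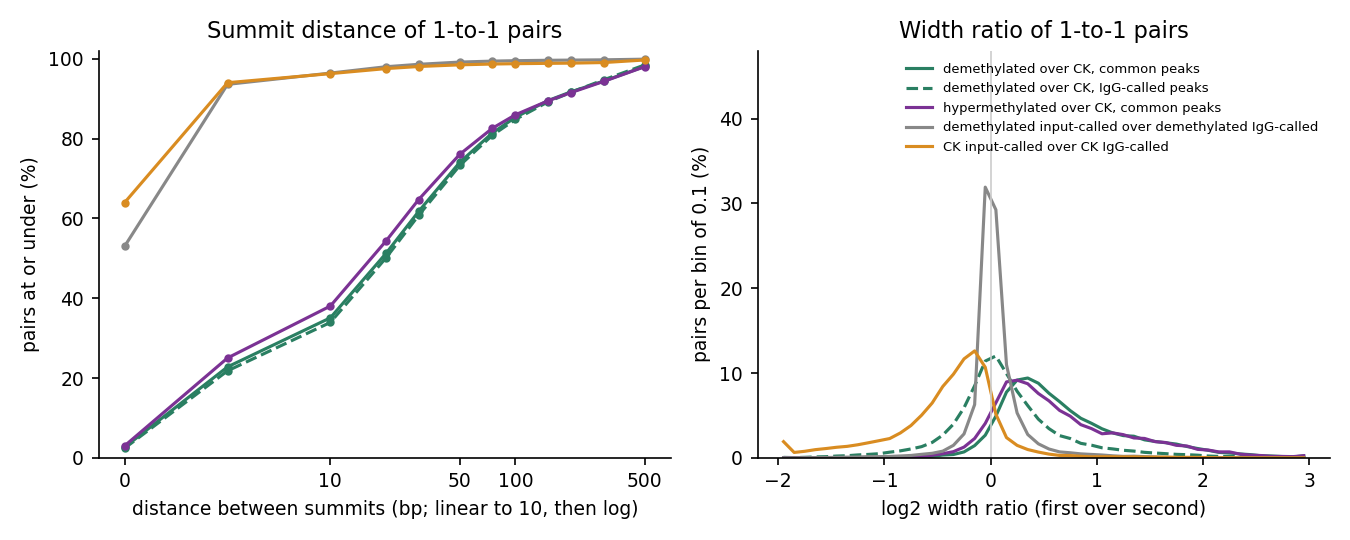
Left, cumulative share of 1-to-1 pairs (y axis, percent) by distance between summits (x axis, bp). Right, distribution of the log2 width ratio of the pairs (x axis, first named over second) in bins of 0.1, with the end bins holding all pairs beyond them. Summits of demethylated DNA and CK were within 50 bp in 74.03% of pairs of common peaks, and the median width ratio was 0.55 for common peaks and 0.08 for IgG-called peaks.

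The 3 largest shifts came from broad demethylated peaks with a small CK peak inside them or at an edge. On chromosome 6 the demethylated peak ran from 22424308 to 22427319 (3012 bp) and its CK partner from 22424291 to 22424528 (238 bp), with summits 2436 bp apart. On chromosome 9 the peaks ran from 13278621 to 13281768 in demethylated DNA and from 13280649 to 13280905 in CK, with summits 1765 bp apart. The third pair was on chromosome 12, from 6251956 to 6254365 in demethylated DNA and from 6253785 to 6254231 in CK, with summits 1740 bp apart.

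Height at the summits of the pairs was read as fold, IP level and local control level, and these did not go the same way. The fold of the authors' peak caller had a median of 4.33 in demethylated DNA and 3.58 in CK, with a median log2 ratio of 0.24 (0.23 to 0.25), and it was higher in demethylated DNA in 65.5% of pairs. The IP level was lower in demethylated DNA, with medians of 5.12 and 7.33 in demethylated DNA and CK, a median log2 ratio of -0.51 (-0.51 to -0.50), and a higher demethylated value in 13.2% of pairs. The local control level was lower as well, with medians of 1.09 and 1.83 times background and a median log2 ratio of -0.71. The higher fold of demethylated peaks thus accompanied a lower IP level over a lower control.

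With IgG as control the fold had the opposite direction. Its median log2 ratio was -0.47, the IP level gave -0.47 and the control level 0.02. For peaks whose local control was at background in both sets, the fold ratio was -0.04 and the IP ratio was -0.14. The IP level was therefore lower in demethylated DNA under all settings tried, with median log2 ratios of -0.55 to -0.14, whereas the direction of the fold followed the control. Hypermethylated DNA compared with the same CK libraries had an IP ratio of -0.24, and demethylated compared with hypermethylated DNA had -0.27.

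The IP level of the conditions was closest in broad peaks. Among 4 such classes of demethylated width, the widest (744 bp and above) had a median log2 IP ratio of -0.32 and 24.1% of pairs higher in demethylated DNA, against -0.65 and 5.34% in the narrowest (338 bp and below). By CK width, the ratio was -0.37 in the widest class, and between -0.59 and -0.54 in the other 3. CK fold made little difference, with ratios of -0.55 to -0.48 over its classes. Demethylated width can itself depend on the demethylated signal, which was not tested.

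The pairs with the most extreme fold ratios are given with the control level of the condition of lower fold. Fold is taken over the control, so a low fold itself favours a high control. The highest ratio was on chromosome 4, from 35502191 to 35502694 in demethylated DNA and from 35502462 to 35502683 in CK, with a fold of 33.1 in demethylated DNA and 2.61 in CK. The CK control level there was 17.7 times background. On chromosome 6 from 31247332 to 31247784 the fold was 24.2 in demethylated DNA and 2.44 in CK, with a CK control of 33.5 times background. These pairs on chromosomes 4 and 6 lay at the very ends of their chromosomes, whose lengths were taken as 35502694 and 31247786. On chromosome 2 from 18461447 to 18462145 the fold was 23.4 in demethylated DNA and 2.55 in CK, with a CK control of 2.83 times.

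The lowest ratios were on the same chromosomes. On chromosome 4 the demethylated peak from 23645996 to 23646445 had a fold of 2.83 and its CK partner 23.2, with a demethylated control level of 17.2 times background. On chromosome 6 from 23572144 to 23572478 the fold was 3.49 in demethylated DNA and 23.6 in CK, with a demethylated control of 7.81 times. On chromosome 2 from 14263889 to 14264190 it was 1.901 in demethylated DNA and 11.99 in CK, with a demethylated control of 14.4 times. At these 6 pairs the summits lay 0 to 180 bp apart, and the IP and control levels of the side with the higher fold could not be recovered.

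Along the chromosomes the difference between the common sets was nearly even. The direction of the total count turned with the list, since the IgG-called lists held 79889 demethylated and 94627 CK peaks, and the counts by chromosome and window are of the common sets alone. On each of the 12 chromosomes demethylated DNA had more peaks than CK, with a log2 ratio of counts of 0.37 on chromosome 10 to 0.44 on chromosome 1. Density ran from 181 demethylated peaks per Mb on chromosome 3 to 211 on chromosome 12, and from 135 CK peaks per Mb on chromosome 1 to 161 on chromosome 12. The specific share lay between 36.8% (chromosome 12) and 40.1% (chromosome 1) in demethylated DNA, and between 8.98% (chromosome 12) and 12.6% (chromosome 3) in CK. The median IP ratio was lowest on chromosome 3 (-0.57) and nearest to 0 on chromosome 12 (-0.47), the median width ratio was 0.53 to 0.58, and the median summit distance was 19 to 21 bp. Chromosomes 1, 2 and 3, the long ones, had the lowest densities and the highest specific shares in both sets.

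Position relative to the centromere was then examined, with midpoints taken as approximate values from general knowledge of the MSU v7.0 assembly. Peaks were denser within 3 Mb of the midpoint in both conditions, at 230.2 against 188 per Mb in demethylated DNA and 177 against 140 per Mb in CK. The share of demethylated peaks that were specific was 37.1% (36.3 to 37.8) in this proximal part and 39.03% (38.6 to 39.4) in the distal part, while the share of CK peaks that were specific was 8.65% (8.17 to 9.15) and 11.1% (10.8 to 11.4). Both shares were thus slightly lower in the proximal part. In demethylated DNA this did not extend to the class nearest the approximate midpoint. The share was 41.0% (39.1 to 42.8) within 0.5 Mb of it, the highest of the 8 distance classes. It was 35.5% to 36.9% between 0.5 and 3 Mb and 38.1% to 39.7% farther away. Single 1-Mb windows centred within 0.5 Mb of a midpoint ranged from 29.0% on chromosome 11 to 48.9% on chromosome 9, a spread that the pooled interval does not cover. The proximal minus distal difference of demethylated-specific peaks had the opposite sign in the IgG-called lists (3.28 percentage points in place of -1.96). That of CK-specific peaks was negative in all settings.

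The gain on no CK peak had a different profile. It was 18.04% (16.6 to 19.5) of demethylated peaks within 0.5 Mb of the midpoint, 13.4% between 0.5 and 1 Mb, 12.1% between 1 and 2 Mb, 12.4% between 2 and 3 Mb, 13.6% (12.9 to 14.2) between 3 and 5 Mb, 12.6% between 5 and 8 Mb, 10.95% between 8 and 12 Mb and 10.7% (10.3 to 11.2) beyond 12 Mb. It was thus highest next to the midpoint and lowest beyond 8 Mb, without a steady decline between. CK-specific peaks on no demethylated peak were 3.95% (3.18 to 4.90) of CK peaks within 0.5 Mb, 4.85% to 5.64% between 0.5 and 5 Mb and 7.46% (7.02 to 7.93) beyond 12 Mb. Proximal minus distal, the difference was 1.62 percentage points in demethylated DNA and -1.52 in CK. The demethylated difference was positive on 9 of 12 chromosomes and the CK difference negative on 11. The demethylated difference was between -0.42 and -0.04 with a fold of at least 4, with the top 20000 peaks and with peaks at background control, and 0.72 with a −log10 q-value of at least 5. At folds of 4 or more and among the top 20000 peaks only 284 and 118 demethylated peaks were on no CK peak, which leaves little room for a difference. This does not hold at background control, where 2903 of 18761 demethylated peaks were on no CK peak and the difference was -0.42.

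The IP level of shared peaks also varied with distance. The median log2 IP ratio of the pairs was -0.34 (-0.38 to -0.32) within 0.5 Mb of the midpoint, -0.47 between 3 and 5 Mb and -0.57 (-0.58 to -0.56) beyond 12 Mb. It was nearer to 0 in the proximal than in the distal part by 0.11 on the log2 scale, on 12 of 12 chromosomes, with 0.02 on chromosome 2 as the smallest and 0.22 on chromosome 5 as the largest difference. The IgG-called lists gave -0.34 and -0.52 at the same ends. The median demethylated IP level was 5.19 within 0.5 Mb and 5.06 beyond 12 Mb, and the median CK IP level was 6.60 and 7.49.

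A gradient was also present when hypermethylated DNA was compared with CK, at -0.04 within 0.5 Mb and -0.30 beyond 12 Mb. It was absent between demethylated and hypermethylated DNA, at -0.24 and -0.28, with a proximal minus distal difference of -0.01. The first 2 comparisons share the CK libraries, and the CK control level also varied with position, at 1.499 times background within 0.5 Mb and 1.998 times beyond 12 Mb, against 1.10 and 1.10 in demethylated DNA. The part of the CK libraries in the gradient was not tested further.

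**Figure D5:**
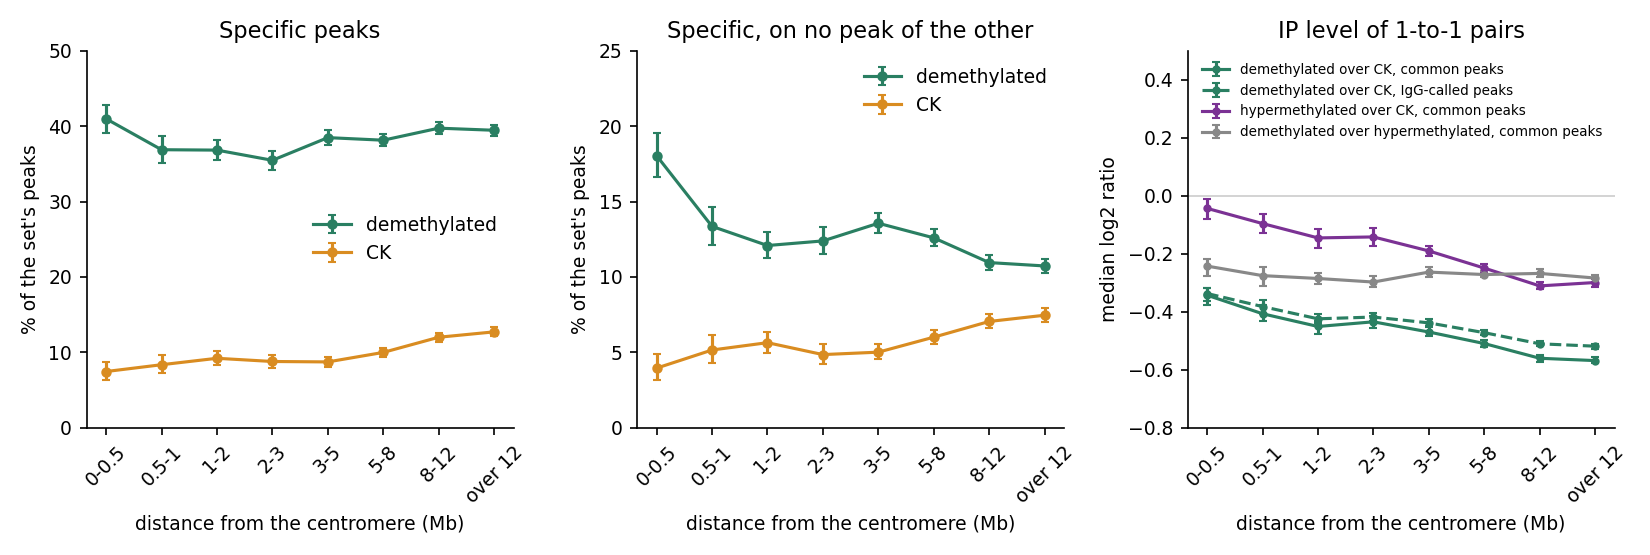
Share of each set that was specific (left), share that was specific and on no peak of the other condition (middle), and median log2 IP ratio of 1-to-1 pairs (right), by distance from the centromere midpoint (x axis, Mb, unequal classes), with 95% counting intervals. The middle share was 18.04% in demethylated DNA and 3.95% in CK within 0.5 Mb, and the IP ratio of demethylated DNA over CK was -0.34 within 0.5 Mb and -0.57 beyond 12 Mb.

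Specific shares at chromosome ends were close to those of the distal part. Within 0.5 Mb of an end 38.7% of demethylated and 10.9% of CK peaks were specific, against 39.03% and 11.1% in the distal part. Beyond 10 Mb from the ends the shares were 38.2% and 9.63%. The median IP ratio was -0.58 within 0.5 Mb of an end, -0.60 between 0.5 and 1 Mb, and -0.48 beyond 10 Mb, against -0.53 in the distal part. The log2 ratio of counts was 0.37 within 0.5 Mb of an end, 0.45 between 0.5 and 1 Mb and 0.41 beyond 10 Mb.

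In windows of 1 Mb, of which 378 held at least 20 peaks over both sets, demethylated DNA had more peaks in all 378. The log2 ratio of counts had a median of 0.41 with an SD of 0.11 over windows, and 90% of windows lay between 0.24 and 0.60. The 5 highest windows were on chromosome 10 from 11000001 (195 demethylated and 115 CK peaks, log2 ratio 0.76), chromosome 12 from 3000001 (199 and 119, 0.74), chromosome 2 from 7000001 (210 and 128, 0.71), chromosome 9 from 22000001 (147 and 92, 0.68) and chromosome 3 from 11000001 (172 and 108, 0.67). The 5 lowest were on chromosome 5 from 29000001 (178 and 171, 0.06), chromosome 7 from 1000001 (167 and 154, 0.12), chromosome 10 from 23000001 (41 and 37, 0.15), chromosome 11 from 9000001 (213 and 192, 0.15) and chromosome 4 from 35000001 (81 and 73, 0.15). Of these, the windows on chromosomes 5, 10 and 4 were the last, incomplete windows of their chromosomes.

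Single examples show the strongest peaks found on one side only. Among the 2227 demethylated-specific peaks on no CK peak with a −log10 q-value of at least 10, the highest fold was 12.9, on chromosome 8 from 12992780 to 12993017, with 198 fragments at the summit and a −log10 q-value of 145. It lay within 0.5 Mb of the centromere midpoint and was also in the sets of hypermethylated DNA at both pH. The next were on chromosome 11 from 20570768 to 20571285 (fold 8.94, 137 fragments) and chromosome 2 from 17565858 to 17566297 (fold 8.87, 136 fragments). The first of these 2 was also in the hypermethylated pH 7.0 set, and the other in the hypermethylated pH 5.5 set.

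The remaining 2 were on chromosome 5 from 5774688 to 5775756 (fold 8.55, 131 fragments), which was in all 3 other sets, and on chromosome 3 from 20671403 to 20671873 (fold 8.48, 130 fragments), which was in the hypermethylated pH 7.0 set. All 5 had their local control at background. The demethylated pH 5.5 set held 1 of the 5.

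Among the 833 CK-specific peaks on no demethylated peak and past the same q-value, the highest fold was 8.91, on chromosome 5 from 21481691 to 21481907, with 162 fragments, and no other set had it. The next was on chromosome 11 from 24204223 to 24204458 (fold 8.80, 124 fragments), which both pH 5.5 sets held. The third was on chromosome 9 from 22358083 to 22358371 (fold 8.31, 202 fragments), which the hypermethylated pH 5.5 set held. None of the 3 was in the hypermethylated pH 7.0 set.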

How the data were processed

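iM-IP-seq reads were trimmed, aligned to MSU v7.0 with BWA, filtered with SAMtools and Picard, and the 2 IP libraries of a condition were merged by the authors. The authors called peaks with MACS2 (version 2.1.1, q-value threshold 0.05) against input and against IgG. The deposited lists have no header line and were read in the narrowPeak layout. They hold positions, a display score, the fold over the local control at the summit, and the p-value and q-value of the authors' peak caller, each as −log10. Labels of both demethylated pH 7.0 IPs name the hypermethylated input list, so the name of the demethylated list and the label of its input decided. No CK input library was among the 17 samples of the series, so it could not be analysed here.

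Sets were formed with Python (3.11.15, with numpy 2.4.6, pandas 2.3.3, scipy 1.17.1, matplotlib 3.10.9). Its overlap counts were checked against bedtools (2.31.1) on simulated peaks. Whole IP fragments at the summit and the local control level were solved from fold and p-value up to a −log10 p-value of 250, with a tolerance of 0.05 fragments. They were found for at least 99.9852% of the peaks tried in each list, and the procedure was checked on simulated data. IP level is fragments, multiplied by the peak caller's scale for the list, over the background level of the list. Numbers of fragments at summits are given unscaled. Pairs are groups of 1 demethylated and 1 CK peak. Proximal means within 3 Mb of an approximate centromere midpoint, and the last peak end stood for chromosome length.

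The text names, with a −log10 q-value of at least 10, the 5 demethylated-specific and 3 CK-specific peaks of highest fold on no peak of the other condition, then the 3 peaks over most peaks of the other set on each side (ties by −log10 q-value), the 3 pairs of largest shift and of highest and lowest fold ratio, and the 5 highest and lowest windows with at least 20 peaks. Alternatives changed the list, threshold, overlap, set size, coverage and proximal distance. Those on minimum gap and width, IgG-called peaks at one coverage and background control were added after seeing the data. The members and lists were chosen with earlier results of these data known.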

Additional observations from a re-analysis of the deposited data

How the results depend on the processing

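The wider demethylated peaks, the lower demethylated IP level, the smaller proximal share of CK-specific peaks and the IP gradient kept their direction under all 11 to 13 alternatives run for each. The number of specific peaks, the fold, and the proximal difference of demethylated-specific peaks did not. The median summit distance was 13 to 21 bp over its alternatives. Specific peaks had few fragments, which limits the precision of their values, and one coverage for both conditions gave 23864 demethylated-specific and 6749 CK-specific peaks. No paired analysis was possible because the IP libraries were merged before peak calling, so no library could be left out either. The alternative on sequence composition was not run, because no genome of the build was used here. The causes of the differences below were not tested.

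With all IgG-called peaks there were 13346 demethylated-specific and 24275 CK-specific peaks (log2 ratio -0.86), and 19261 CK peaks on no demethylated peak. At one coverage the IgG-called lists gave 10672 and 26231 (log2 ratio -1.30), with 18654 on no demethylated peak. With one minimum gap and width they gave 18246 and 14727, with 10857 on no demethylated peak and 2340 joining peaks. For these 3 settings, in the same order, the width ratio was 0.082, 0.083 and 0.054, the fold ratio -0.47, -0.47 and -0.50, the IP ratio -0.47, -0.47 and -0.49, and the proximal minus distal IP difference 0.088, 0.087 and 0.094. The proximal minus distal difference in specific peaks was 3.28, 3.11 and 3.13 percentage points in demethylated DNA and -5.53, -5.65 and -4.62 in CK, and for CK peaks on no demethylated peak -4.38, -4.40 and -3.36. The summit distance was 21 bp with one minimum gap and width.

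A fold of at least 4 gave 14769 demethylated-specific peaks, 284 demethylated and 725 CK peaks on no peak of the other condition, 308 joining peaks, a summit distance of 13 bp, and ratios of 0.54 for width, 0.19 for fold and -0.50 for IP. The top 20000 peaks gave 7166, 118, 394, 619, 15 bp, 0.60, 0.43 and -0.50 for the same measures. Peaks at background control gave 16372, 2903, 803, 160, 14 bp, 0.53, -0.043 and -0.14. Raising the −log10 q-value minimum to 5 gave 5259 demethylated and 2169 CK peaks on no peak of the other condition, 2613 joining peaks, 17 bp, 0.54, 0.215 and -0.55.

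In percentage points, the proximal minus distal difference for specific peaks was 0.0184 in demethylated DNA and -6.31 in CK at folds of 4 or more, -0.0308 and -6.92 with the top 20000 peaks, and -5.30 and -1.87 at background control. It was -3.49 and -1.48 with one minimum gap and width and -3.78 and -1.54 with all input-called peaks, -3.10 in CK with the higher q-value threshold, and -0.84 in demethylated DNA with 2 Mb as proximal. For peaks on no peak of the other condition it was -0.12 in demethylated DNA at folds of 4 or more, -0.042 and -0.37 in demethylated DNA and CK with the top 20000 peaks, -0.42 and -4.70 at background control, 0.72 in demethylated DNA with the higher q-value threshold, and -0.79 in CK with one minimum gap and width. The IP difference was 0.085 at folds of 4 or more and 0.095 for the top 20000 peaks.

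One minimum gap and width gave 2473 CK-specific peaks, 1271 on no demethylated peak, 2344 joining peaks, 21 bp, a width ratio of 0.49 and a fold ratio of 0.25. All input-called peaks gave a width ratio of 0.53 and a fold ratio of 0.215, and one coverage a fold ratio of 0.25.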

Other observations

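Ranked by width, the narrowest of 10 classes of demethylated peaks (206 to 246 bp) was specific in 71.4% and the widest class (1120 bp and above) in 6.65%. In CK the narrowest class (168 to 185 bp) was specific in 32.3%. Ranked by fold, 78.7% of the lowest and 3.19% of the highest class of demethylated peaks were specific, whereas in CK the share was 10.6% in the lowest, 13.9% in the second and 2.78% in the highest class, so that it did not decline steadily with fold there.

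At 1 kb or wider there were 9237 demethylated peaks (12.6%) and 1706 CK peaks (3.10%). Of these, 775 demethylated peaks and 1 CK peak were specific. In windows of 1 Mb the specific share lay between 26.3% and 51.6% of demethylated peaks and between 2.35% and 21.4% of CK peaks.

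All of the other 3 sets held 67.8% of shared and 23.5% of specific demethylated peaks, and 65.1% of shared and 20.7% of specific CK peaks.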
